A study of Mus musculus with 4 samples.

Results

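Oxygen sensing in cells rests on the hypoxia-inducible factors (HIFs) and the enzymes that mark them for destruction, and the 8 genes described here encode its core proteins. They are the HIF alpha subunit genes Hif1a and Epas1, the common beta subunit gene Arnt, the prolyl hydroxylase genes Egln1, Egln2 and Egln3, the asparaginyl hydroxylase gene Hif1an and the ubiquitin ligase gene Vhl. They were chosen by their known roles, but with earlier results of these data known. All 8 were found among the 22079 genes of the deposited expression table. Their levels were compared between 2 wild-type (WT) and 2 Prom1-/- (KO) libraries of primary mouse hepatocytes. Per the labels all animals were C57BL/6 males aged 8 weeks, and the 2 libraries of a genotype were biological replicates. Liver cells of both genotypes were plated in medium with serum and dexamethasone, then kept overnight in serum-free medium. The labels give no oxygen tension for the cultures, and neither the Prom1 allele nor the number of mice behind a culture is given in the sources used here.

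When oxygen is plentiful, the prolyl hydroxylases hydroxylate the HIF alpha proteins, the von Hippel-Lindau protein encoded by Vhl binds the hydroxylated form, and the proteasome degrades it. When oxygen is scarce the alpha proteins escape this step, join the Arnt protein and switch on genes of glycolysis, blood vessel growth and mitochondrial turnover. Egln1 and Egln3 are themselves induced by HIF, which closes a feedback loop. In the liver, oxygen falls along the lobule from the portal to the central vein, and Epas1 activity in hepatocytes is known for its effects on lipid and iron handling. This regulation acts mainly on the alpha proteins, which RNA levels do not measure.

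Of the 8 genes, 7 had a lower level in KO, as did 50.3% of all genes tested, and Hif1a had a higher one. Egln3 had the largest difference, at 5.62 ± 0.840 FPKM in WT against 2.01 ± 0.185 in KO (SD, n = 2), a KO level 0.358 times that of WT. FPKM counts fragments per kilobase relative to the library's total, a level per transcript length, so it can be set side by side between genes. No gene passed the test: by limma on log2(FPKM + 1), 0 of the 8 had an adjusted p under 0.05, as did 0% of the 10407 genes tested (those with a mean of at least 1 FPKM). At an unadjusted limma p under 0.05 stood 4 of the 8 (Egln3, Epas1, Egln1 and Arnt, all lower in KO), where 7.29% of all genes did in either direction and 4.19% with lower KO values. That count was smaller with either WT library left out, and the count over all genes tested also moved with the library left out. With any 1 library left out, the log2 difference ran from -1.26 to -1.001 for Egln3 and from -0.64 to -0.38 for Epas1. It ran from -0.38 to -0.32 for Egln1, from -0.31 to -0.27 for Arnt and from 0.12 to 0.53 for Hif1a. The KO pair was wholly under the WT pair for 6 of the 8 and wholly over it for Hif1a, while 38.1% of all genes had such separated libraries, 19.8% below and 18.3% above. The median log2 difference of the 8 was -0.27, against -0.0011 over all genes tested. With 2 libraries against 2, the smallest two-sided p of an exact permutation test for 1 gene is 0.333. Instead, limma pools the spread over genes. Its p-values set the difference between genotypes against the spread between libraries of the same genotype, in these 4 libraries only.

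**Figure D1:**
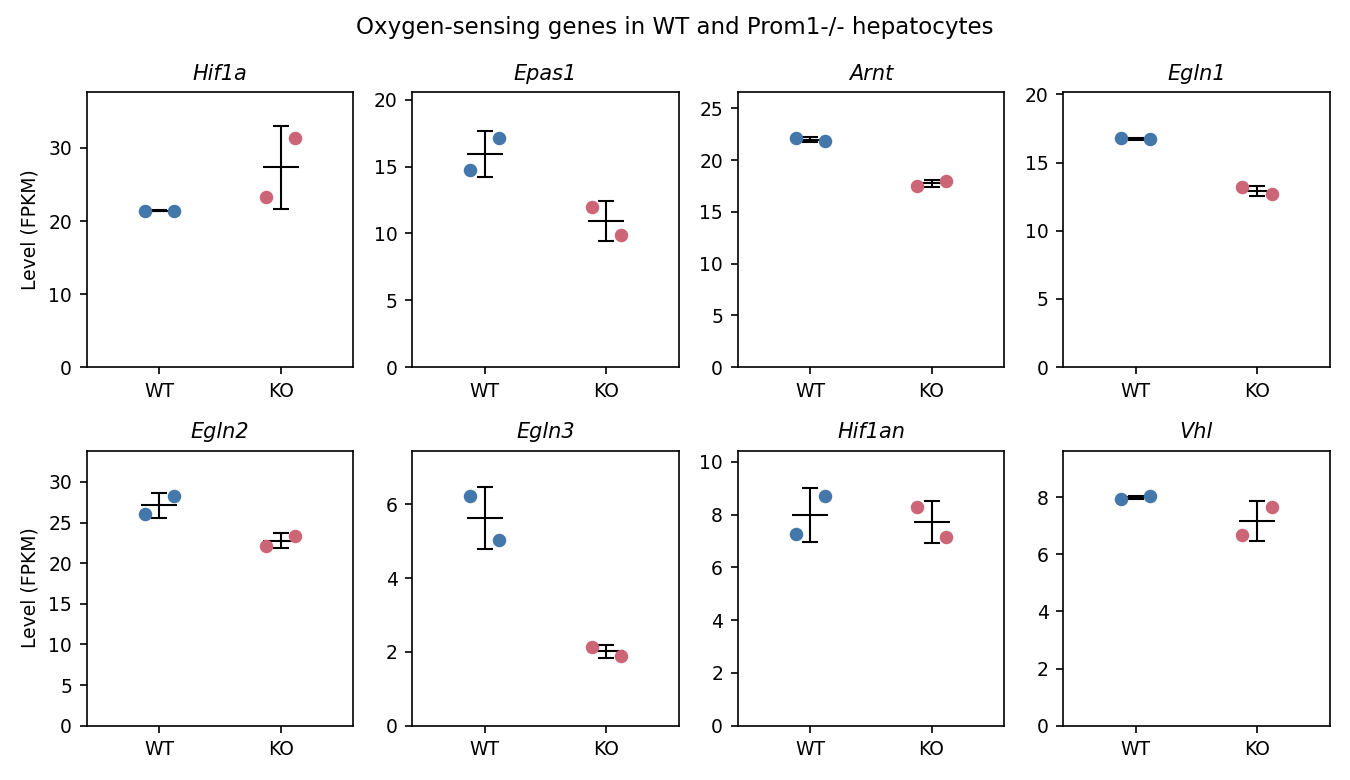
Level of each oxygen-sensing gene in FPKM (vertical axes, starting at 0 and scaled for each gene) in the WT (blue) and KO (red) libraries; each dot is 1 library, the dash is the mean and the bar the SD (n = 2). The KO dots lie below the WT dots for Epas1, Arnt, Egln1, Egln2, Egln3 and Vhl, above them for Hif1a, and among them for Hif1an.

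The targeted gene followed the labels. Prom1, the targeted gene, encodes a membrane glycoprotein of plasma-membrane protrusions; its WT values were 0.571 and 1.22 FPKM, and its KO values were 0 as listed for KO 1 and 0.0458 FPKM for KO 2 (log2 difference -0.87, SE 0.19; limma adjusted p = 0.755 among the 15152 genes above 0 in any library). Correlations of log2 levels were 0.976 to 0.988 between libraries of different genotype and 0.986 within each genotype. Hepatocyte markers were abundant in every library: the 9 markers other than Alb summed to 9506 to 11024 FPKM, mostly from Apoa1, Ttr and Apoc3. Of the 10 hepatocyte markers, 7 had lower KO values, as did 50.3% of all genes tested. The KO pair was wholly under the WT pair for 4 of these (Hnf4a, Tat, Fah and Apoc3), against 19.8% of all genes. Apob was wholly higher, as were 18.3% of all genes. Hnf4a, a transcription factor of hepatocyte identity, stood at 90.4 and 95.8 FPKM in WT against 64.9 and 59.5 in KO (log2 difference -0.58; limma adjusted p = 0.470). Alb, the albumin gene, was listed at 0 in WT 2 against 25551 to 32670 FPKM in the other libraries, so a 0 in this table can be a failed estimate. Summed markers of other liver cells were lower than the hepatocyte sum in every library. The macrophage marker Cd68 alone stood at 351 to 465 FPKM, above Hnf4a in every library. Summed macrophage markers were higher in KO, at 368 and 363 FPKM in WT against 412 and 483 in KO for 9 genes. All 6 tested markers had higher KO values, but the log2 differences ran from 0.022 to 0.87. The KO pair was wholly above the WT pair for 4 of the 6, against 18.3% of all genes. Marco (0.87) and Cd5l (0.70) had the largest differences, so the markers did not differ evenly. The part of these hepatocyte and macrophage marker differences in those of the 8 genes was not tested. Without Cd68, the most abundant macrophage marker, the sums were 10.6 and 11.9 FPKM in WT against 18.8 and 17.7 in KO. Endothelial markers were highest in KO 1 (112 summed FPKM over 13 genes) and lowest in KO 2 (60.0), with 77.9 and 79.8 in WT. None of the endothelial or macrophage markers was at 0 in any library. In these bulk libraries, fewer cells of a type and less RNA per cell cannot be told apart.

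The prolyl hydroxylases are iron-dependent enzymes that use oxygen and 2-oxoglutarate, and their 3 genes had lower means in KO together. Their promoter sequences are shown because HIF binds the core motifs ACGTG and GCGTG, and HIF feedback on Egln1 and Egln3 is well described; that of Hif1a, the gene with higher KO values, is added for comparison. Each sequence below runs from 250 bases before to 30 bases after the RefSeq start (build GRCm38.p6), read 5′ to 3′ on the gene's strand. Capitals mark every ACGTG or GCGTG on either strand (CACGT and CACGC are their reverse complements, and CACGTG holds ACGTG on both strands).
Egln3 (chr12:54203845-54204124, minus strand): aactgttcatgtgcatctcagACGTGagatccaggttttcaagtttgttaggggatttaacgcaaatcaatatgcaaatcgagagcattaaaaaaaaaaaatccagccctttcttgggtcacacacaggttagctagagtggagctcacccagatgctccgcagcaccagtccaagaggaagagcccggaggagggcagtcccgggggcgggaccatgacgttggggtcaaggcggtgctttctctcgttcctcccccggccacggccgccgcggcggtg
Egln1 (chr8:124949225-124949504, minus strand): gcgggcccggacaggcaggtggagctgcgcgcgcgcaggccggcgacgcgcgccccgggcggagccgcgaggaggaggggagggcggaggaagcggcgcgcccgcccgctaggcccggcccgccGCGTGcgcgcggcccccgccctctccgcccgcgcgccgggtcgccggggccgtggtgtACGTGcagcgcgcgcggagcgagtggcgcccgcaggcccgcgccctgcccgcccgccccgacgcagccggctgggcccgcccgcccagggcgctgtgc
Egln2 (chr7:27166773-27167052, minus strand): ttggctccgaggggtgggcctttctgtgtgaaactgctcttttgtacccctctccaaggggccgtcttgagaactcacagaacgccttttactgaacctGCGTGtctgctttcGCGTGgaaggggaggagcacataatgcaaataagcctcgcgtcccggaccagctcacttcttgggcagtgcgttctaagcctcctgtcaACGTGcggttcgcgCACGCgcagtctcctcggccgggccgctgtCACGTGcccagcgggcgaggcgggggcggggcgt
Hif1a (chr12:73907617-73907896, plus strand): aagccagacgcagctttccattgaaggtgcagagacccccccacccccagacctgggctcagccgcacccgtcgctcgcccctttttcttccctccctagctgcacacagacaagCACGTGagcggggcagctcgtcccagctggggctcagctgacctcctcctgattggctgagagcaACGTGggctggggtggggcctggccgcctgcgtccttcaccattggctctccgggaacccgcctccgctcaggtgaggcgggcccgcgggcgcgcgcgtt

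The windows differ in how many of these motifs they hold. Egln3 has 1 ACGTG, which begins 229 bases before the start, and no GCGTG. Egln1 has 1 ACGTG beginning 68 bases before the start and 1 GCGTG. The upstream window of Egln2 has 3 of each, counting a CACGTG at the start site on both strands. A second Egln2 window, at 27165699 to 27165978 and not shown, has 0 ACGTG and 1 GCGTG. Hif1a has 3 ACGTG, again counting a CACGTG on both strands, and no GCGTG. Of 32851 RefSeq windows of the same length, 18.5% hold ACGTG on either strand, 30.8% hold GCGTG and 41.8% hold at least 1 of them. At least 3 ACGTG stand in 1.57% of the windows, and at least 3 of either motif in 8.09%. The Arnt window has 1 GCGTG and those of Vhl and Hif1an have neither; 7 of the 8 genes, all but Epas1, were matched to a window. Base composition also differed. G and C made up 86.1% of the Egln1 window and 55.0% of that of Egln3. They made up 62.1% of the upstream Egln2 window and 49.3% of the second. The median over all windows was 52.5%. A motif match describes the letters in this window and shows no binding.

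Egln3, a hydroxylase strongly induced in hypoxia, stood at 6.21 FPKM in WT 1, 5.03 in WT 2, and at 2.14 in KO 1 and 1.88 in KO 2. The lowest WT library was thus above the highest KO library, and the gap between genotypes exceeded the gap within either. The log2 difference was -1.13 (SE 0.16, 95% interval -1.53 to -0.73). Its limma p was 0.000486 unadjusted and 0.361 adjusted over 10407 genes. By moderated t it ranked 10 from the lowest of all genes tested. With any 1 library left out the difference stayed between -1.26 and -1.001, and the adjusted limma p ran from 0.202 to 0.918. Because Egln3 is expressed at a low level, the added 1 FPKM shrinks its change: with 0.1 added the log2 difference was -1.43. The gene (ENSMUSG00000035105, chromosome 12, 54178981 to 54203860, minus strand in mm10) has 1 annotated transcript of 2662 bases. From an estimated library depth of 14500000 to 18800000 fragments, its values rest on about 288 and 191 fragments in WT against 93.0 and 67.2 in KO.

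Egln1, the main hydroxylase that sets HIF alpha levels in most tissues, stood at 16.8 FPKM in WT 1, 16.7 in WT 2, and at 13.2 in KO 1 and 12.7 in KO 2. Replicates were close within each genotype and the genotypes did not overlap. The log2 difference was -0.35 (SE 0.10; limma adjusted p = 0.570), and the KO mean was 0.772 times that of WT. Leaving out any library kept it between -0.38 and -0.32. The gene (ENSMUSG00000031987, chromosome 8, 124908587 to 124949324, minus strand) also has 1 annotated transcript, of 3594 bases, and about 624 to 1073 estimated fragments per library.

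Egln2, the paralogue that is least responsive to hypoxia and is known as an oestrogen-induced gene, stood at 26.1 FPKM in WT 1, 28.2 in WT 2, and at 22.1 in KO 1 and 23.4 in KO 2. It was the most abundant of the family in every library. The KO libraries were again the lower pair, with a log2 difference of -0.25 (SE 0.10; limma adjusted p = 0.687) and a 95% interval of -0.50 to 0.0069 that includes 0. The gene (ENSMUSG00000058709, chromosome 7, 27158658 to 27166802, minus strand) shares 11 exon bases with Cyp2t4 on the opposite strand, which was listed at 0 in all libraries.

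Added up on the per-length scale, the 3 hydroxylase genes reached 49.1 and 49.9 FPKM in WT against 37.4 and 37.9 in KO. The makeup of that sum also differed. Egln3 contributed 12.7% and 10.1% of it in WT and 5.73% and 4.96% in KO, and Egln2 contributed 53.1% and 56.5% in WT and 59.0% and 61.6% in KO. The share of Egln1 was nearly level, at 34.3% and 33.4% in WT and 35.2% and 33.4% in KO. Egln1 was thus 2.71 and 3.32 times as abundant as Egln3 in WT and 6.14 and 6.74 times in KO. No test was run on these shares; an exact permutation test over these libraries cannot give a two-sided p under 0.333.

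**Figure D2:**
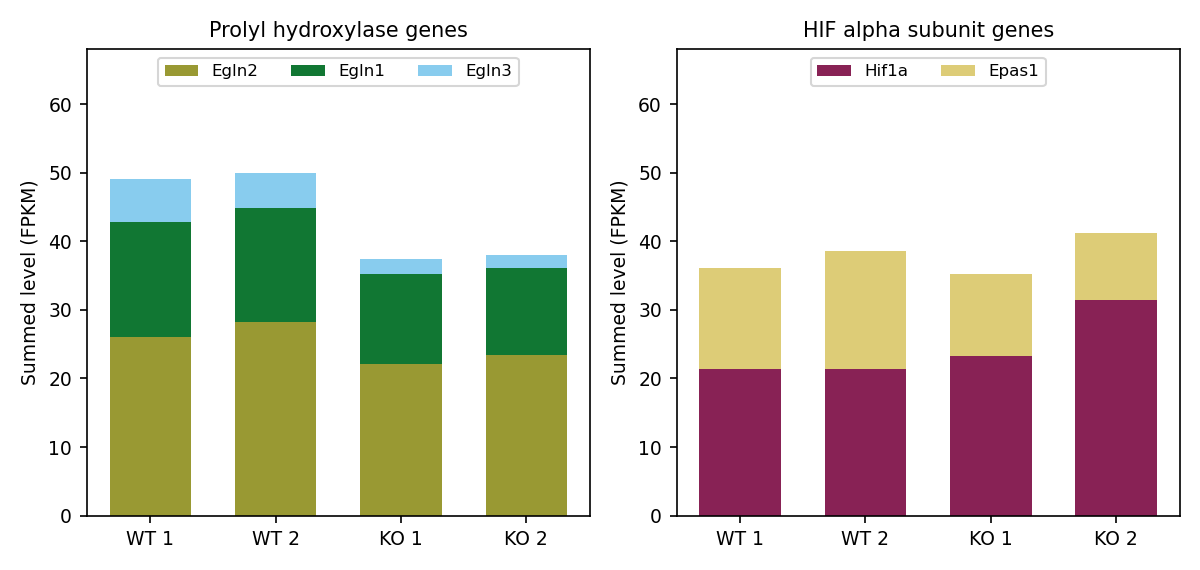
Summed level in FPKM (vertical axes) of the prolyl hydroxylase genes (left) and the HIF alpha subunit genes (right) in each of the 4 libraries (horizontal axes), with each gene's part in its own colour. The hydroxylase bars reach 49.1 and 49.9 in WT against 37.4 and 37.9 in KO, with Egln3 the thinnest part; the alpha subunit bars overlap between genotypes, and Epas1 takes a smaller part of them in KO.

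The alpha subunit genes differed in opposite directions. Epas1, which encodes the HIF alpha subunit prominent in endothelium and also active in hepatocytes, stood at 14.7 FPKM in WT 1, 17.2 in WT 2, and at 11.97 in KO 1 and 9.87 in KO 2. Every KO value was below every WT value. The log2 difference was -0.51 (SE 0.14, 95% interval -0.85 to -0.17; limma adjusted p = 0.562), and the KO mean was 0.685 times that of WT. It was -0.38 without KO 2 and -0.64 without KO 1. The summed endothelial markers were highest in KO 1 and lowest in KO 2. Of 12 endothelial markers tested, 4 had lower and 8 higher KO values (median log2 difference 0.047); Pecam1, an endothelial adhesion molecule, stood at 6.76 and 7.46 FPKM in WT against 6.85 and 3.76 in KO. In KO 2 the lowest Epas1 level and the lowest endothelial sum coincided, and the part of those cells in the Epas1 value was not tested. The gene is ENSMUSG00000024140 (chromosome 17, 86753700 to 86833410, plus strand).

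Hif1a, the widely expressed alpha subunit that drives glycolytic genes in hypoxia, stood at 21.4 FPKM in both WT libraries, 23.3 in KO 1 and 31.4 in KO 2. Both KO values were above the WT values, but they lay farther apart from each other than the genotypes did. The log2 difference was 0.32 (SE 0.15, 95% interval -0.055 to 0.70; limma adjusted p = 0.705). KO 2 set most of it: the difference was 0.12 without that library (limma adjusted p = 0.781) and 0.53 without KO 1 (limma adjusted p = 0.345). Macrophages express Hif1a as well, and their summed markers were higher in both KO libraries. Their part in the Hif1a value was not tested; without Cd68 the marker sum was slightly higher in KO 1 (18.8 FPKM) than in KO 2 (17.7), while Hif1a was higher in KO 2. The gene (ENSMUSG00000021109, chromosome 12, 73901375 to 73947530, plus strand) shares 148 of its 5896 exon bases with Gm49321 on the same strand, which stood between 0.732 and 1.58 FPKM. Hif1a also shares 330 exon bases with Gm15283 on the opposite strand, for which no value was listed.

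**Figure D3:**
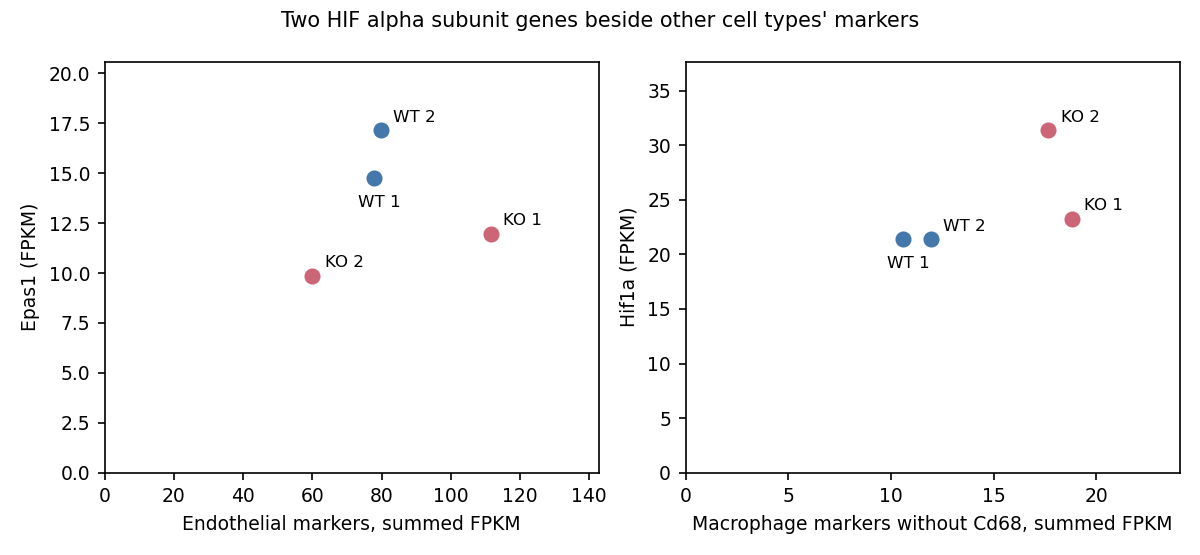
Level of Epas1 against the summed endothelial markers (left, 13 genes) and of Hif1a against the summed macrophage markers other than Cd68 (right, 8 genes), all in FPKM with axes starting at 0; each dot is 1 library, WT in blue and KO in red. Epas1 was lower in both KO libraries, whose endothelial sums were 112 (KO 1) and 60.0 (KO 2, where Epas1 was also lowest), and the part of those cells was not tested; the macrophage sums of KO lay to the right of those of WT.

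The balance between the alpha subunits differed accordingly. Hif1a was 1.45 and 1.25 times as abundant as Epas1 in WT and 1.95 and 3.18 times in KO. Epas1 made up 40.7% and 44.5% of the summed alpha subunit level in WT and 34.0% and 23.9% in KO. The sum itself overlapped between genotypes, at 36.2 and 38.6 FPKM in WT against 35.2 and 41.3 in KO. Set against that sum, the prolyl hydroxylase genes stood at 1.36 and 1.30 FPKM per FPKM of alpha subunit in WT against 1.06 and 0.920 in KO. No test was run on these ratios either.

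Arnt encodes the constitutive partner that both alpha subunits need to bind DNA, and that the aryl hydrocarbon receptor shares. It stood at 22.1 FPKM in WT 1, 21.8 in WT 2, and at 17.5 in KO 1 and 18.01 in KO 2. The KO pair was lower and the replicates of each genotype were tightly grouped. The log2 difference was -0.29 (SE 0.098; limma adjusted p = 0.610), and it stayed between -0.31 and -0.27 with any library left out. Summed alpha subunits were 1.63 and 1.77 times the Arnt level in WT and 2.02 and 2.29 times in KO. The gene is ENSMUSG00000015522 (chromosome 3, 95434388 to 95497240, plus strand).

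Hif1an encodes the asparaginyl hydroxylase that blocks the binding of coactivators to HIF alpha. It stood at 7.25 FPKM in WT 1, 8.69 in WT 2, and at 8.29 in KO 1 and 7.15 in KO 2, so the genotypes overlapped. The log2 difference was -0.039 (SE 0.14; limma adjusted p = 0.972), with a 95% interval of -0.39 to 0.31 that leaves room for a change in either direction; its sign was positive without WT 2 (0.078) and without KO 2 (0.055). Vhl stood at 7.95 FPKM in WT 1, 8.03 in WT 2, and at 6.66 in KO 1 and 7.65 in KO 2. The KO values lay just below the WT values, with a log2 difference of -0.14 (SE 0.13, 95% interval -0.45 to 0.16; limma adjusted p = 0.825). Hif1an (ENSMUSG00000036450) lies on chromosome 19 at 44562850 to 44576274 and Vhl (ENSMUSG00000033933) on chromosome 6 at 113623959 to 113631633, both on the plus strand.

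**Figure D4:**
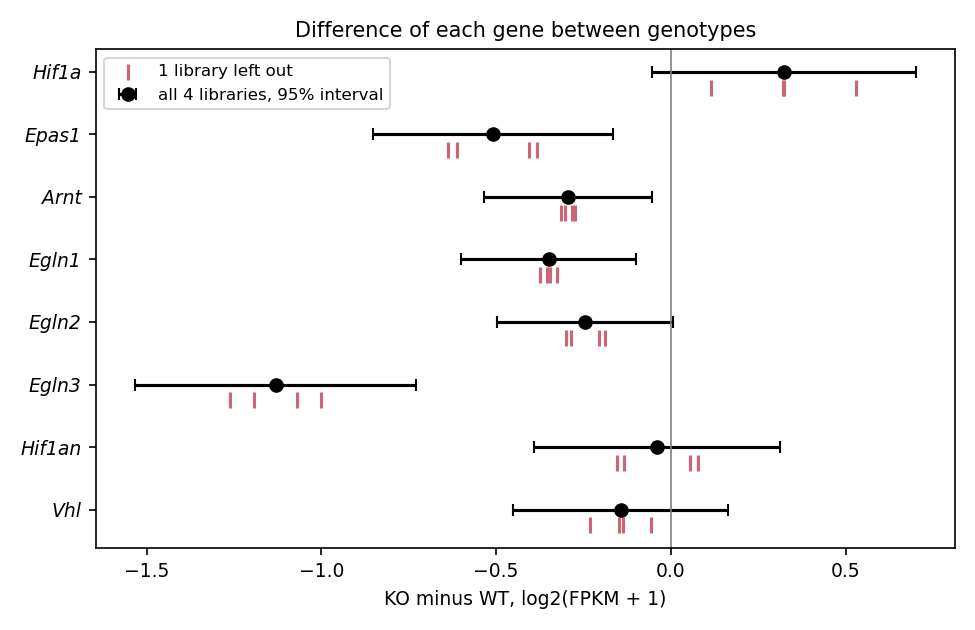
Difference of each gene between KO and WT on the log2(FPKM + 1) scale (horizontal axis; the line marks 0), with black dots and bars for the limma estimate and its 95% interval from all 4 libraries and red ticks for the estimates with 1 library left out. Egln3 lies farthest from 0 at -1.13, the intervals of Epas1, Arnt and Egln1 lie below 0 before adjustment for multiple tests, and the ticks of Hif1an lie on both sides of 0.

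In order of level, the WT libraries ran from Egln2 (27.1 ± 1.53 FPKM) through Arnt (22.0 ± 0.236), Hif1a (21.4 ± 0.0262), Egln1 (16.8 ± 0.0838), Epas1 (15.9 ± 1.71), Vhl (7.99 ± 0.0556) and Hif1an (7.97 ± 1.02) to Egln3 (5.62 ± 0.840; SD, n = 2). Among neighbours in this order, the libraries of Egln1 and Epas1 and those of Vhl and Hif1an overlapped. In KO the order began with Hif1a (27.3 ± 5.73 FPKM) and Egln2 (22.7 ± 0.917), whose libraries overlapped, and went on with Arnt (17.8 ± 0.368), Egln1 (12.9 ± 0.348), Epas1 (10.9 ± 1.48), Hif1an (7.72 ± 0.804) and Vhl (7.16 ± 0.697), the last pair overlapping. Egln3 was again the lowest, at 2.01 ± 0.185 FPKM. Hif1a thus ranked behind Egln2 and Arnt in WT and led in KO, where it overlapped Egln2, and the rest kept their order apart from the overlapping pair Vhl and Hif1an.

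The genes whose pattern over the 4 libraries was most like that of Egln3 were found by the Euclidean distance between centred log2(FPKM + 1) profiles. They were the scavenging chemokine receptor gene Ackr3 (distance 0.189), the liver phosphofructokinase gene Pfkl (0.230), the hypoxia-induced gene Ankrd37 (0.235), the gluconeogenic gene Pck1 (0.306) and the metallothionein gene Mt4 (0.312). Ackr3 stood at 9.68 and 7.62 FPKM in WT against 2.97 and 2.76 in KO, and Ankrd37 at 2.09 and 2.08 in WT against 0.597 and 0.267 in KO. For Epas1, with its smaller difference, closer matches existed: the uridine phosphorylase gene Upp1 (distance 0.0276), Gm10036 (0.0355), Ypel2 (0.0380), Crip2 (0.0720) and Zfand4 (0.0730). Crip2 stood at 28.1 and 31.5 FPKM in WT against 23.1 and 19.9 in KO. With 4 libraries, such likeness is a description only.

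Around these 8 genes, the remaining parts of the pathway were read from fixed lists, and 0 members of any of them passed the adjusted limma threshold in either direction. Genes commonly induced in hypoxia, the targets through which HIF activity is usually read, had 24 members tested without Egln1 and Egln3, of which KO values were lower for 22 and higher for 2; the median log2 difference was -0.29. Of all genes tested, 50.3% had lower KO values. The KO pair was wholly under the WT pair for 14 of the 24, against 19.8% of all genes. It was wholly over the WT pair for 1, against 18.3% (38.1% of all genes were separated in either direction). An unadjusted limma p under 0.05 was found for 12, 11 of them lower. Among all genes tested the share was 7.29%, and 4.19% with lower KO values. Bnip3, a mitophagy receptor, stood at 75.0 and 115 FPKM in WT against 32.1 and 29.1 in KO (log2 difference -1.58), and Ndufa4l2, which encodes a mitochondrial protein induced by HIF, at 10.3 and 13.9 in WT against 4.18 and 2.68 in KO (-1.57). Ankrd37, described above, differed by -1.12. In the GENCODE annotation, exons of Ndufa4l2 share 32 bases with those of Shmt2 on the opposite strand, and those of Bnip3 (504 bases), Ankrd37 (349 with Lrp2bp and 57 with Ufsp2) and Slc2a1 (105) also overlap opposite-strand genes, where reads may not be separable without strand. The angiogenic growth factor gene Vegfa, named outside the rule after its values were seen, stood at 69.0 and 70.3 FPKM in WT against 47.6 and 57.0 in KO (-0.41). The glucose transporter gene Slc2a1, also named after its values were seen, was the separated member with higher KO values, at 42.5 and 40.1 FPKM in WT against 47.6 and 55.6 in KO (0.31). The erythropoietin gene Epo was listed at 0 in all libraries. This list holds genes already known to be low in these KO libraries, so it is no independent evidence of a direction.

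The partner proteins of the 8 genes gave smaller values. The VHL ligase, which also needs elongins, a cullin and a ring protein, had 9 genes tested, 3 with lower and 6 with higher KO values and a median log2 difference of 0.040. Cul2, its cullin scaffold, stood at 25.8 and 24.7 FPKM in WT against 26.7 and 35.4 in KO (0.28), and Rbx1, its ring subunit, at 24.6 and 30.3 in WT against 21.5 and 26.5 in KO (-0.19). The signalosome subunit gene Cops5 (0.15) and the deubiquitinase gene Usp20 (0.090) followed. Coactivators, chaperones and other regulators of HIF had 15 members tested, 10 lower and 5 higher, with a median of -0.021. Among them the ligase gene Siah2, whose product degrades prolyl hydroxylases, stood at 7.67 and 8.58 FPKM in WT against 5.53 and 7.55 in KO (-0.29). Cited2, which competes with HIF for its coactivators, stood at 22.2 and 18.1 in WT against 28.4 and 21.0 in KO (0.27). The coactivator gene Ep300 stood at 12.8 and 14.0 in WT against 10.6 and 11.4 in KO (-0.26), and Ing4 differed by -0.16. The separated counts were 2 of 9 and 6 of 15, beside 38.1% of all genes.

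Of 12 other bHLH-PAS factors, the family to which the HIF subunits belong, 4 passed the level filter and 3 of them were lower in KO (median -0.16). Ahr, the aryl hydrocarbon receptor gene, stood at 10.00 and 8.94 FPKM in WT against 8.26 and 6.98 in KO (-0.28), while the clock genes Arntl, Arntl2 and Clock differed by -0.19, 0.16 and -0.14. Hif3a, the remaining alpha subunit gene, stayed between 0.0115 and 0.139 FPKM and Arnt2 between 0 and 0.0512 FPKM, both below the filter. Hif1a, Epas1 and Arnt were thus the HIF subunit genes above 1 FPKM.

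Enzymes that share the chemistry of the HIF hydroxylases split evenly by sign. Other 2-oxoglutarate-dependent oxygenases had 24 members tested, 12 with lower and 12 with higher KO values and a median log2 difference of 2.2e-05. The histone demethylase gene Kdm4b stood at 5.94 and 4.75 FPKM in WT against 3.72 and 3.60 in KO (-0.44; limma adjusted p = 0.632) and had the largest difference among them. Asph (0.24), Jmjd6 (-0.23) and the RNA demethylase gene Alkbh5 (-0.23) followed. Genes that make or use 2-oxoglutarate, succinate or fumarate, the cosubstrate of the hydroxylases and inhibitors of them, had lower KO values for 12 of 20 members and a median of -0.044. Idh2, the mitochondrial isocitrate dehydrogenase gene, stood at 21.5 and 20.6 FPKM in WT against 16.2 and 17.6 in KO (-0.30; limma adjusted p = 0.619). Ogdh (-0.19), Suclg1 (0.18) and Idh1 (0.17) came next in size. The separated counts were 9 of 24 oxygenases and 7 of 20 metabolic genes, near the 38.1% of all genes.

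**Figure D5:**
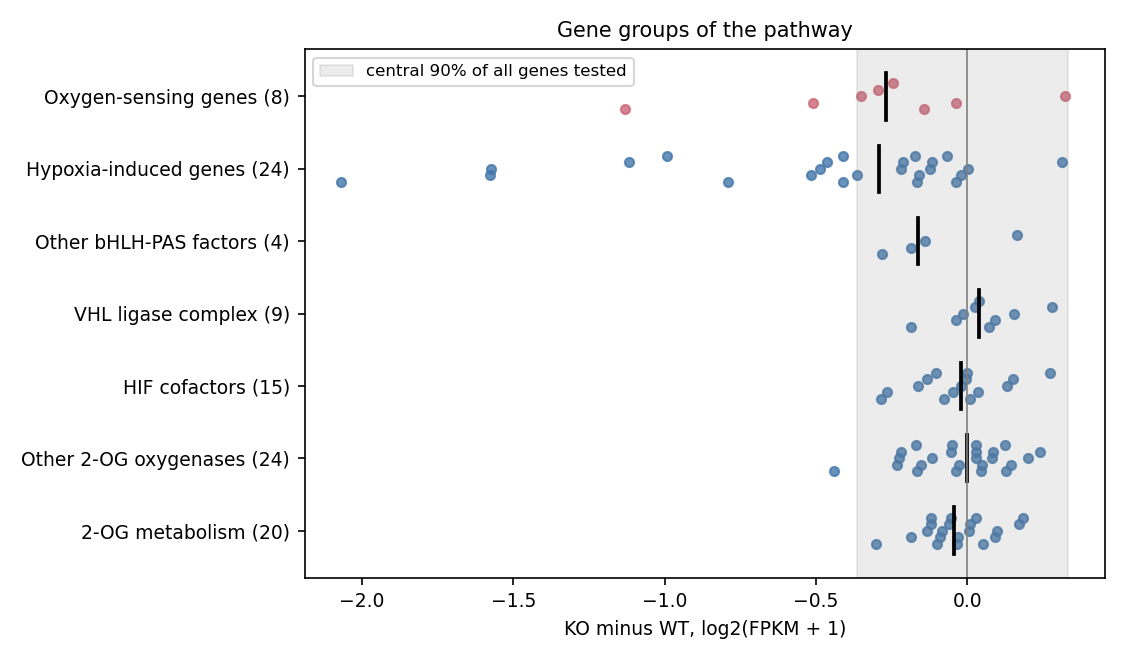
Difference between KO and WT on the log2(FPKM + 1) scale (horizontal axis) for every tested member of each gene group (rows, with the number of members), 1 dot per gene, with a black line at the group's median and grey shading over the central 90% of all genes tested (-0.36 to 0.33). The hypoxia-induced genes reach farthest to the left, with Bnip3 at -1.58, while the medians of the ligase, cofactor, oxygenase and metabolic groups lie within 0.05 of 0.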

How the data were processed

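RNA was measured by mRNA sequencing (stranded Illumina TruSeq, per the labels' protocols) in 2 WT and 2 KO hepatocyte libraries. The authors deposited 1 value per gene and library, read here as FPKM from the tools that the submitters' processing notes list (Cufflinks, Cuffdiff 2.2.1 and STAR 2.5.0, with build mm10), since no column states the unit. Which annotation and strand setting were used is not given in these sources. FPKM is divided by length and depth, so no count model was used. Whole fragments were not recovered, and depth was estimated from steps of low values in genes with 1 transcript, assuming fragments of 200 bases. At the depths chosen, 38.3% to 41.2% of those low values lay within 0.1 of a whole fragment. The depths and the fragment numbers are therefore rough.

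Of 22079 identifiers, 21984 matched a GENCODE M21 symbol. Values were compared as log2(FPKM + 1) with limma 3.58.1 in R 4.3.3 (lmFit, eBayes with trend, two-sided, genotype as the only term, Benjamini-Hochberg over the 10407 genes whose mean reached 1 FPKM, threshold 0.05). The fit was also run on simulated data with normal noise, to check its estimates and its recovery of large differences. How often it recovers differences as small as most of those here is not given. Promoters are RefSeq windows (GRCm38.p6). The members and gene lists were chosen with earlier results of these data known. Named genes are the members, Prom1, up to 4 per list by absolute log2 difference, and the 5 nearest patterns of the 2 members with the largest absolute moderated t; 1 gene the rule takes is not reported here. Alternatives were other pseudocounts (0.1, 0.5), filters (none, mean of 5), scalings, no trend, each library left out and a replicate block. No batch is named in the labels.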

Additional observations from a re-analysis of the deposited data

How the results depend on the processing

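Under all 12 alternative settings 0 of the 8 genes passed the adjusted limma threshold (adjusted p from 0.155 to 0.9999), and 93 of 95 alternative differences of single genes kept their sign. The exceptions were Hif1an without WT 2 (0.078) and without KO 2 (0.055), whose range with 1 library left out began at -0.16. The filters, the fit without trend and the replicate block leave a gene's difference as it was, so the sign could not change there. Egln3 could not be read at a mean of at least 5 FPKM, which it does not reach. The number of genes called was 0 to 8 with 1 library left out (8 without WT 1, 5 without KO 1) and 0 otherwise; at an unadjusted p under 0.05 it was 759 with all libraries, 318 without WT 2 and 1227 without KO 2. With 1 library left out, where the lone library of a genotype is assumed to vary like the others, median log2 differences ran from -0.30 to -0.24 for the 8 genes, from -0.44 to -0.31 for hypoxia-induced genes, from -0.27 to -0.047 for bHLH-PAS factors, from -0.057 to -0.012 for cofactors and from -0.054 to -0.0025 for genes of 2-oxoglutarate metabolism. With no filter on low values the medians were -0.017 for bHLH-PAS factors, -0.032 for other oxygenases and -0.19 for hypoxia-induced genes, as genes near 0 entered; with a mean of at least 5 FPKM that of other oxygenases was 0.030. Of these medians, those of other oxygenases and, without KO 2, of the VHL ligase genes (-0.016) changed sign. WT and KO libraries share replicate numbers whose meaning the labels do not give; same-numbered libraries deviated together with a correlation of 0.15 over genes. With a replicate block, 0 genes were called, 1054 had an unadjusted p under 0.05, and Egln3 had an adjusted limma p of 0.155. Depth limits Egln3 most, at an estimated 67.2 fragments in KO 2.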
